A study of Mus musculus with 6 samples.

Results

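The genes described here belong to families of enzymes that add or remove acetyl and methyl groups on histones, the proteins that package DNA. They are the protein-coding genes of the deposited count table whose symbols start with Kdm, Hdac, Sirt, Kat, Kmt or Setd and a number, with 1 matching gene left out by the rule. There were 59 such genes of 55487 in the table: 17 Kdm, 11 Hdac, 7 Sirt, 8 Kat, 8 Kmt and 8 Setd. They were measured in 4T1 cells, a transplantable mouse mammary carcinoma line, by poly(A) RNA sequencing of bulk cultures after 12 h with 10 µM cepharanthine (CEP), a plant alkaloid, or with an equal volume of its solvent, dimethyl sulfoxide (DMSO). Each group had 3 libraries, and the labels do not say whether they came from separate cultures, so p-values measure only the spread between these libraries. Both groups came from the same line, and the labels name no genetic change.

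Histone acetylation, written by acetyltransferases (Kat) and erased by deacetylases (Hdac, and the NAD-dependent sirtuins, Sirt), generally accompanies open and transcribed chromatin. Methylation of lysines is written by methyltransferases (Kmt, and most of the Setd genes) and erased by demethylases (Kdm), and its effect depends on the lysine that carries it. Several of these enzymes act also or mainly on proteins other than histones, and transcript levels do not measure their activity.

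Total counts ran from 15299261 to 19655010 per library, so counting error was small for most members. CEP replicate 1 stood apart on the first principal component, with a score of 10.1 against 28.5 and 30.4 for CEP replicates 2 and 3 and -21.9 to -23.8 for the DMSO libraries. The epithelial genes Epcam, Krt8, Krt18, Krt19 and Cdh1 were all expressed, while Ptprc, Cd3e, Cd79a and Adgre1 of leukocytes, Pecam1 and Cdh5 of endothelium, and Pdgfrb and Dcn of fibroblasts were at or near 0. Epcam, Krt19 and Cdh1 were higher in CEP and Krt8 and Krt18 lower (log2 fold changes 0.42, 0.72, 0.39, -0.60 and -0.26), and their part in the results below was not tested. Pdgfra, also listed as a fibroblast marker, was expressed at a mean of 65.8 CPM in DMSO and rose in CEP. Levels in CPM, reads scaled to a common library size, use the TMM method throughout. A gene counted as changed when its adjusted p was under 0.05 in edgeR's quasi-likelihood test over the 13405 genes tested. A value given with ± and no unit is a log2 fold change, CEP minus DMSO, with its SE.

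Cepharanthine-treated cells had higher transcript levels of 19 genes of these enzyme families and lower levels of 5. The rises were modest, and the largest were those of Sirt2, Kdm7a, Kdm6b and Kmt5c, between 0.66 and 0.79 on the log2 scale. The falls included 3 of the 4 class I deacetylase genes and Kat2a, an acetyltransferase gene. These were at or above 30 CPM per kilobase of exon in DMSO, where 39.8% of all genes tested fell (limit chosen after the values were seen). In all, 56 of the 59 members had enough reads to be tested, 24 changed and 32 did not pass. Of all genes tested, 38.2% changed, 20.1% higher and 18.2% lower, so the members' 24 of 56 was near the background in number, with 33.9% of tested members higher and 8.93% lower. Of the changed members 79.2% were higher, against 52.5% of all changed genes. These shares were 68.2% and 44.6% with upper quartile scaling, and 63.6% and 39.9% once trends with exon length and GC content were removed. The median log2 fold change was 0.10 over the 56 members and 0.01 over all genes tested. No member changed 2-fold. In bulk RNA, a change in the share of cells that express a gene and a change in its level per cell cannot be told apart.

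**Figure D1:**
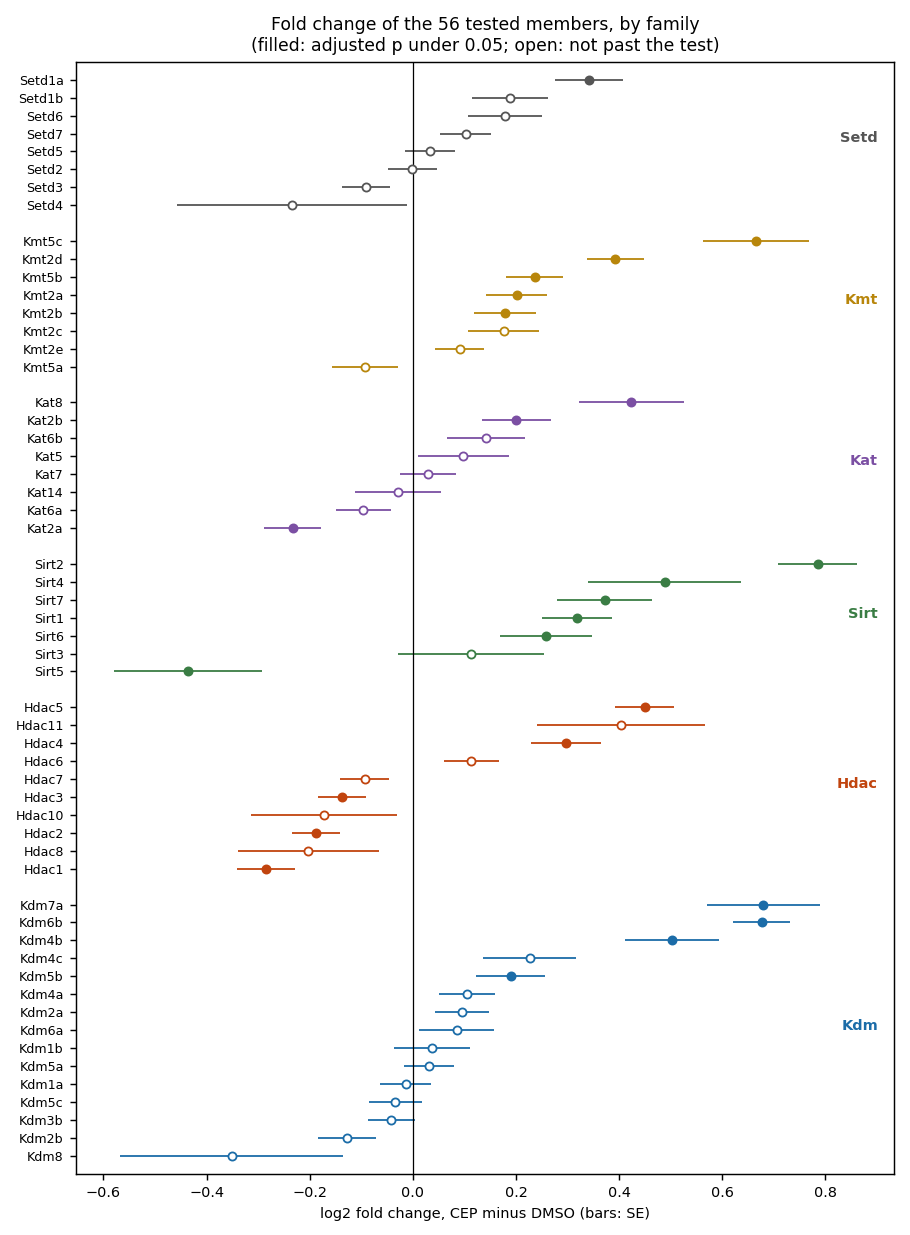
Log2 fold change (x axis, CEP minus DMSO) of each of the 56 tested members (rows), grouped and coloured by family, with bars of 1 SE and filled points for adjusted p under 0.05. The rises reach 0.79 for Sirt2, the class I deacetylase genes lie below 0, and every Kmt gene but Kmt5a lies above 0.

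The remaining 3 members were too low to test. Kdm5d, a Y-linked H3K4 demethylase gene, had 0 reads in each library. That allows a level of up to 0.197 CPM in DMSO replicate 2, the smallest library after TMM scaling (3 reads, counting error only). Kdm4d had 2 to 9 reads per library and Hdac9 had 1 to 5.

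Upstream sequences are shown for the 4 largest rises and 2 largest falls among members that were called under every alternative and had a single start in the RefSeq promoter table (GRCm38.p6). They are given so that the promoters of members that moved in each direction can be read side by side. Each is the 250 bases before the annotated start, 5′ to 3′ on the gene's strand, and capitals mark matches on either strand to CACGTG (the E-box core), CCAAT (the NF-Y box), GGGCGG (the GC box) or TGATGNAA (a core of C/EBP-ATF composite elements).
Sirt2 (chr7:28766502-28766751, plus strand): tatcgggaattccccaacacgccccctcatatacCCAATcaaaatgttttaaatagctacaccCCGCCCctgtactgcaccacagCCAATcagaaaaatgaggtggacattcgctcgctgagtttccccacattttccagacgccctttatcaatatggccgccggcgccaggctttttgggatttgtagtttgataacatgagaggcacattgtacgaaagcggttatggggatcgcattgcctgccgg
Kdm7a (chr6:39206774-39207023, minus strand): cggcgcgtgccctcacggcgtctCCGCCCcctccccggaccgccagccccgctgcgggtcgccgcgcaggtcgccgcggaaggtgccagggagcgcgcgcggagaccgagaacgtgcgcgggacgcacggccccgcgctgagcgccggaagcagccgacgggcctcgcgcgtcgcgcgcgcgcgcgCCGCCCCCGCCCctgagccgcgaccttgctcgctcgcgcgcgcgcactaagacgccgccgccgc
Kmt5c (chr7:4739877-4740126, plus strand): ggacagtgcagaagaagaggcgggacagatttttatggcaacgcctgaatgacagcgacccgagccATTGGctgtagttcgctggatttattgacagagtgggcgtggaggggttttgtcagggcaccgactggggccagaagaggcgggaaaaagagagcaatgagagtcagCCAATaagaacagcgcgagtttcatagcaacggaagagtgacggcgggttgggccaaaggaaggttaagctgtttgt
Hdac5 (chr11:102230173-102230422, minus strand): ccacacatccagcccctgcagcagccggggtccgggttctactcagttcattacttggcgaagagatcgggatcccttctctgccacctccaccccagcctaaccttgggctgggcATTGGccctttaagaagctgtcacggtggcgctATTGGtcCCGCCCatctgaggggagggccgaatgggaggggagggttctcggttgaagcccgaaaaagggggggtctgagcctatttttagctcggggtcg
Kat2a (chr11:100712468-100712717, minus strand): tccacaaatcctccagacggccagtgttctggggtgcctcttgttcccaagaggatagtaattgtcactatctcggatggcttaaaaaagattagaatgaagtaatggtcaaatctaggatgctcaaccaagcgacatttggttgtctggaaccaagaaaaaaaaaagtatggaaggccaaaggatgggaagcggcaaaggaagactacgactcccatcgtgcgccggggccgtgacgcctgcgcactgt
Hdac2 (chr10:36974294-36974543, plus strand): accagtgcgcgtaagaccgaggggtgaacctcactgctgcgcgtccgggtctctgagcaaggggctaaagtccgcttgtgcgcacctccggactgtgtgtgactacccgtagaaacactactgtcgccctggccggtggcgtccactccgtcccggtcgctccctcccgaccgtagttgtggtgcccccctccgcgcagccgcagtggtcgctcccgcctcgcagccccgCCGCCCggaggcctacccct
Sirt2, Kmt5c and Hdac5 each held 2 CCAAT matches, with 1 GGGCGG match in Sirt2 and in Hdac5. Kdm7a held 3 GGGCGG matches, of which 2 lie next to each other. Kat2a held no match to any of the 4 motifs, and Hdac2 held 1 GGGCGG match. None of the 6 held CACGTG or TGATGNAA, which occurred in 6.02% and 3.45% of the 32851 upstream windows of the same length. CCAAT and GGGCGG occurred in 33.8% and 32.7% of all windows. Of the members, 47 had an entry, with 65 windows in all, and 41.5% of these held CCAAT and 58.5% GGGCGG. In the 20 windows of members that rose, 35% held CCAAT, near the share of all windows. GGGCGG was held by 70% of these 20, beside 58.5% of all member windows. The shares of all windows include genes not expressed here. Matches to different motifs may share bases at their ends, and a match describes the letters and not a binding site.

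Of 15 tested Kdm demethylase genes 4 rose and 11 did not pass (26.7% higher, 0% lower, beside 20.1% and 18.2% of all genes tested). None of the 15 fell in edgeR, DESeq2 or limma-voom (1, Kdm2b, had an unadjusted p under 0.05 in edgeR). The median log2 fold change was 0.08. The 4 that rose were among the 13 tested genes whose JmjC domain uses iron and 2-oxoglutarate. Only 2 tested Kdm genes lay outside that group, too few to compare the groups. Kdm1a and Kdm1b, the flavin-dependent enzymes also called LSD1 and LSD2, stood at -0.01 ± 0.04999 and 0.04 ± 0.0731.

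Kdm6b (also JMJD3), which removes the Polycomb mark H3K27me3 and is known as an inducible gene of inflammatory responses in macrophages, was among the largest rises. The DMSO libraries (replicates 1, 2 and 3) held 45.3, 47.7 and 48.1 CPM of Kdm6b transcript, and the CEP libraries 75.3, 74.6 and 75.7 CPM in the same order. The CEP libraries were close together and all lay well above DMSO. Kdm6b thus had a log2 fold change of 0.68 ± 0.0553 (SE) with an edgeR adjusted p = 5.64e-07. The gene lies on chromosome 11, 69398508 to 69413675 (GRCm38.p6, minus strand, ENSMUSG00000018476). Its antisense partner Kdm6bos had at most 5 reads in a library. Its paralog Kdm6a, which removes the same mark, stood at 0.08 ± 0.0720 and did not pass (edgeR adjusted p = 0.376). Per kilobase of exon, the level of Kdm6b was 1.35 to 1.45 times that of Kdm6a in the DMSO libraries and 2.03 to 2.17 times in the CEP libraries.

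Kdm7a, whose product removes dimethyl marks from H3K9 and H3K27, was low in absolute terms, at 1.52 CPM per kilobase in DMSO. Levels of Kdm7a were 13.1, 15.5 and 15.04 CPM in DMSO and 19.9, 25.6 and 24.5 CPM in CEP, for replicates 1, 2 and 3 of each. The groups did not overlap, and CEP replicate 1 was the lowest of the CEP libraries. For Kdm7a this gave a log2 fold change of 0.68 ± 0.109 (SE), and edgeR adjusted p = 0.000262. Kdm4b, an H3K9 and H3K36 demethylase gene, was the next largest rise of the family. Kdm4b stood at 30.3, 35.9 and 33.0 CPM in DMSO replicates 1, 2 and 3 and at 43.4, 43.6 and 53.6 CPM in CEP replicates 1, 2 and 3. CEP replicate 3 was the highest, and all CEP values lay above DMSO. The log2 fold change of Kdm4b was 0.50 ± 0.0914 (SE; edgeR adjusted p = 0.000745). Its paralogs Kdm4a and Kdm4c stood at 0.10 ± 0.0537 and 0.23 ± 0.0901 and did not pass. Kdm4c passed without CEP replicate 3 (edgeR adjusted p = 0.0356) and with a mean of at least 5 CPM required (0.0484, alternatives 0.0356 to 0.188). Kdm5b, an H3K4 demethylase gene, rose by 0.19 ± 0.0662 (edgeR adjusted p = 0.0352), with 47.2 ± 1.44 CPM in DMSO and 53.8 ± 3.80 CPM in CEP (SD, n = 3). That call ended without any single library other than CEP replicate 1, with upper quartile scaling, under DESeq2, without a low-count filter and with length and GC trends taken out (adjusted p 0.0529 to 0.171, alternatives 0.00273 to 0.171).

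The tested demethylase genes not named so far ranged from -0.35 ± 0.216 for Kdm8, with only 3.21 CPM in CEP, to 0.09 for Kdm2a. Among them, Kdm5a and Kdm5c, paralogs of Kdm5b, stood at 0.03 ± 0.0480 and -0.03 ± 0.0515. Kdm3b stood at -0.04 ± 0.0458, and Kdm2b, which recruits a Polycomb complex to CpG islands, at -0.13 ± 0.0563 (edgeR adjusted p = 0.0862). Kdm2b fell without CEP replicate 1 (adjusted p = 0.0129), with upper quartile scaling (0.0336) and with length and GC trends taken out (0.0161, alternatives 0.0129 to 0.281).

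**Figure D2:**
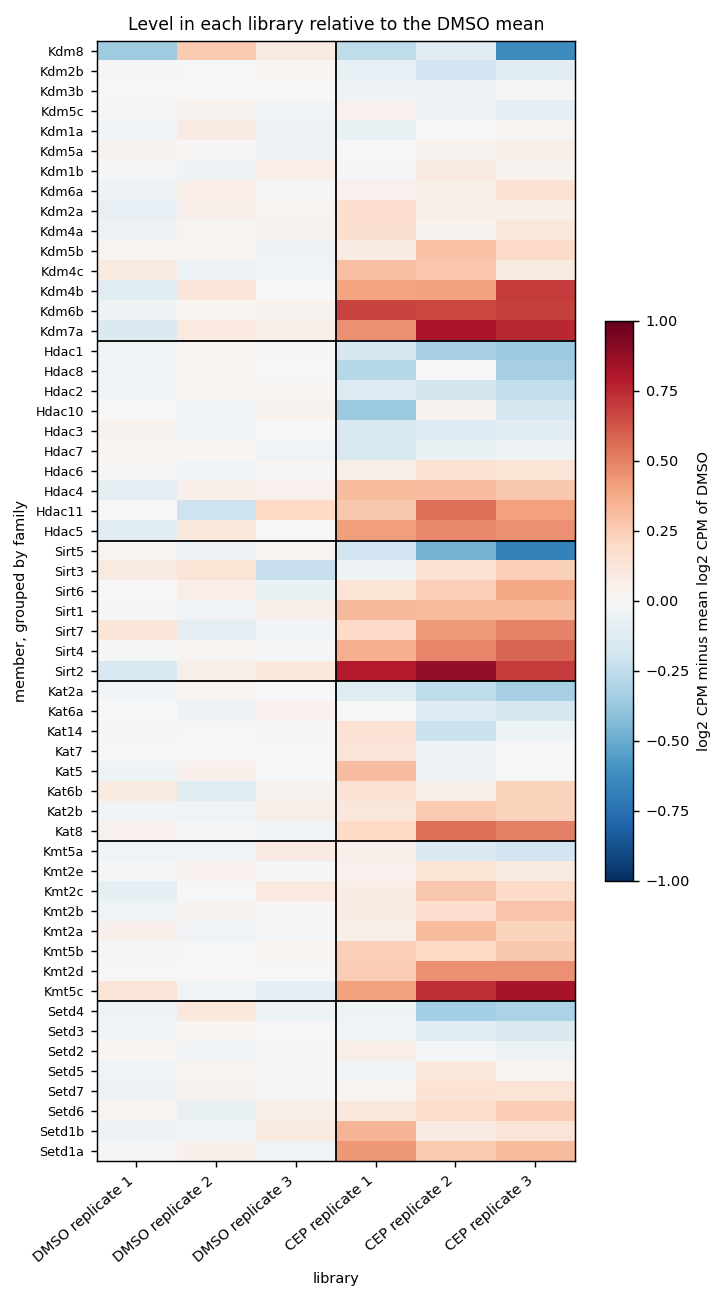
Level of each tested member (rows, by family) in each of the 6 libraries (columns), as log2 CPM minus the mean log2 CPM of the DMSO libraries. Kdm6b and Sirt2 are high in all CEP libraries, whereas Kmt5c, Kdm7a and Sirt5 deviate less in CEP replicate 1 than in CEP replicates 2 and 3.

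The deacetylase genes went both ways. Among the 10 Hdac genes with a test, 2 rose and 3 fell while 5 did not pass, with a median log2 fold change of -0.12. That is 20% higher and 30% lower, beside 20.1% and 18.2% of all genes tested. The genes that fell were Hdac1, Hdac2 and Hdac3 of class I, the nuclear enzymes of the Sin3, NuRD, CoREST and NCoR corepressor complexes. All 3 were above 30 CPM per kilobase in DMSO, and 39.8% of all genes tested at or above that level fell. The genes that rose were Hdac4 and Hdac5 of class IIa, which move between cytoplasm and nucleus and repress MEF2 factors.

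The DMSO libraries (replicates 1, 2 and 3) held 120.5, 125 and 125 CPM of Hdac1 transcript, and the CEP libraries 109.8, 97.7 and 95.7 CPM in the same order. CEP replicate 1 was the closest of the CEP libraries to DMSO, and the groups did not overlap. Hdac1 thus had a log2 fold change of -0.29 ± 0.0563 (SE) with an edgeR adjusted p = 0.0012. A processed pseudogene copy, Hdac1-ps, had 496 to 756 reads per library and also fell (-0.25 ± 0.0656, SE, edgeR adjusted p = 0.00889). Reads of the 2 genes cannot be told apart where the copies match. Hdac2, the closest paralog of Hdac1, fell by 0.19 on the log2 scale, with 183 ± 4.09 CPM in DMSO and 161 ± 5.93 CPM in CEP (SD, n = 3, edgeR adjusted p = 0.00579). Hdac3, the catalytic subunit gene of NCoR complexes, had 122 ± 2.66 CPM in DMSO and 111 ± 1.69 CPM in CEP (log2 fold change -0.14 ± 0.0461, edgeR adjusted p = 0.029). The Hdac3 call ended under DESeq2, without a low-count filter, in a fit blocked on replicate number, and without any single library other than CEP replicate 1 (adjusted p 0.0505 to 0.0906, alternatives 0.00751 to 0.0906). Hdac8, the other class I gene, was low, at 7.79 CPM in DMSO, and stood at -0.20 ± 0.137.

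Levels of Hdac5 were 86.2, 100.5 and 92.4 CPM in DMSO and 124, 129.8 and 127 CPM in CEP, for replicates 1, 2 and 3 of each. All CEP values lay above all DMSO values. For Hdac5 this gave a log2 fold change of 0.45 ± 0.0571 (SE), and edgeR adjusted p = 3.74e-05. Hdac4 also rose, at 4.38 CPM per kilobase in DMSO against 19.2 for Hdac5. Hdac4 stood at 33.3, 36.6 and 36.5 CPM in DMSO replicates 1, 2 and 3 and at 44.2, 43.8 and 42.7 CPM in CEP replicates 1, 2 and 3. The groups did not overlap here either. The log2 fold change of Hdac4 was 0.30 ± 0.0671 (SE; edgeR adjusted p = 0.00307). Hdac7, the class IIa gene with the highest level per length (38.3 CPM per kilobase in DMSO), stood at -0.09 ± 0.0476 and did not pass, but fell with length and GC trends taken out (-0.24, edgeR adjusted p = 0.00161, alternatives 0.00161 to 0.292). Summed over the class per kilobase of exon, class IIa transcripts were 0.280 to 0.296 of class I transcripts in the DMSO libraries and 0.336 to 0.375 in the CEP libraries. Hdac6, the tubulin deacetylase gene, and Hdac10, both of class IIb, stood at 0.11 ± 0.0534 and -0.17 ± 0.142. Hdac6 passed only without CEP replicate 1 (edgeR adjusted p = 0.043, alternatives 0.043 to 0.568). Hdac11, the sole class IV gene, stood at 0.40 ± 0.163 with at most 6.76 CPM in a library, and likewise passed only without CEP replicate 1 (edgeR adjusted p = 0.028, alternatives 0.028 to 0.224).

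Most sirtuin genes were higher in CEP: among 7, 5 rose and 1 fell while 1 did not pass, with a median log2 fold change of 0.32. That is 71.4% higher and 14.3% lower, beside 20.1% and 18.2% of all genes tested. The 4 genes of nuclear and cytosolic sirtuins all rose, with 3 of them called under DESeq2. The 3 mitochondrial sirtuin genes were low, at 4.57 to 8.73 CPM in DMSO, and did not move together.

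Sirt2, whose mostly cytosolic product deacetylates tubulin and histone H4, had the largest rise of all members. The DMSO libraries (replicates 1, 2 and 3) held 32.6, 38.0 and 39.3 CPM of Sirt2 transcript, and the CEP libraries 63.2, 67.1 and 59.3 CPM in the same order. All CEP libraries lay well above all DMSO libraries. Sirt2 thus had a log2 fold change of 0.79 ± 0.0763 (SE) with an edgeR adjusted p = 3.04e-06. It lies on chromosome 7, 28766735 to 28788661 (GRCm38.p6, plus strand, ENSMUSG00000015149), and its exons share 42 bases with Nfkbib on the opposite strand. Sirt1, the nuclear sirtuin gene best known for p53 and metabolic regulation, rose by less. Levels of Sirt1 were 29.3, 28.8 and 30.6 CPM in DMSO and 37.0, 36.8 and 36.8 CPM in CEP, for replicates 1, 2 and 3 of each. The CEP values were nearly equal and above all DMSO values. For Sirt1 this gave a log2 fold change of 0.32 ± 0.0675 (SE), and edgeR adjusted p = 0.00198. Sirt7, of nucleoli, gave a wider spread. Sirt7 stood at 27.3, 23.5 and 24.7 CPM in DMSO replicates 1, 2 and 3 and at 28.6, 33.7 and 35.6 CPM in CEP replicates 1, 2 and 3. CEP replicate 1 lay just above DMSO replicate 1, and the groups did not overlap. The log2 fold change of Sirt7 was 0.37 ± 0.0920 (SE; edgeR adjusted p = 0.00549). Its exons share 124 bases on the same strand with Mafg, which had 18254 reads over the 6 libraries against 2980 for Sirt7.

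Sirt6, which acts on H3K9 at telomeres and promoters, rose by 0.26 ± 0.0891 (edgeR adjusted p = 0.0331), a call that ended without any single library other than CEP replicate 1 (adjusted p 0.0562 to 0.16), with upper quartile scaling (0.0581), under DESeq2 (0.0705) and with length and GC trends taken out (0.195, alternatives 0.00395 to 0.195). Among the mitochondrial genes Sirt4 rose by 0.49 ± 0.148, with 4.57 ± 0.0848 CPM in DMSO and 6.41 ± 0.484 CPM in CEP (SD, n = 3, edgeR adjusted p = 0.0175). Sirt5, a lysine desuccinylase gene, went the other way, with 8.73 ± 0.284 CPM in DMSO and 6.43 ± 1.12 CPM in CEP (log2 fold change -0.44 ± 0.144, edgeR adjusted p = 0.0271). Both rest on 93 to 174 reads per library for Sirt5 and 71 to 118 for Sirt4. The Sirt4 call ended when CEP replicate 2, CEP replicate 3 and DMSO replicate 3 were each left out in turn (edgeR adjusted p = 0.0516, 0.0735 and 0.0652) and under DESeq2 (0.0506, alternatives 0.00821 to 0.0735). The Sirt5 call ended without any single library other than CEP replicate 1 (adjusted p 0.0548 to 0.125, alternatives 0.000859 to 0.125). Sirt3, the main mitochondrial deacetylase gene, stood at 0.11 ± 0.141 (edgeR adjusted p = 0.557).

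**Figure D3:**
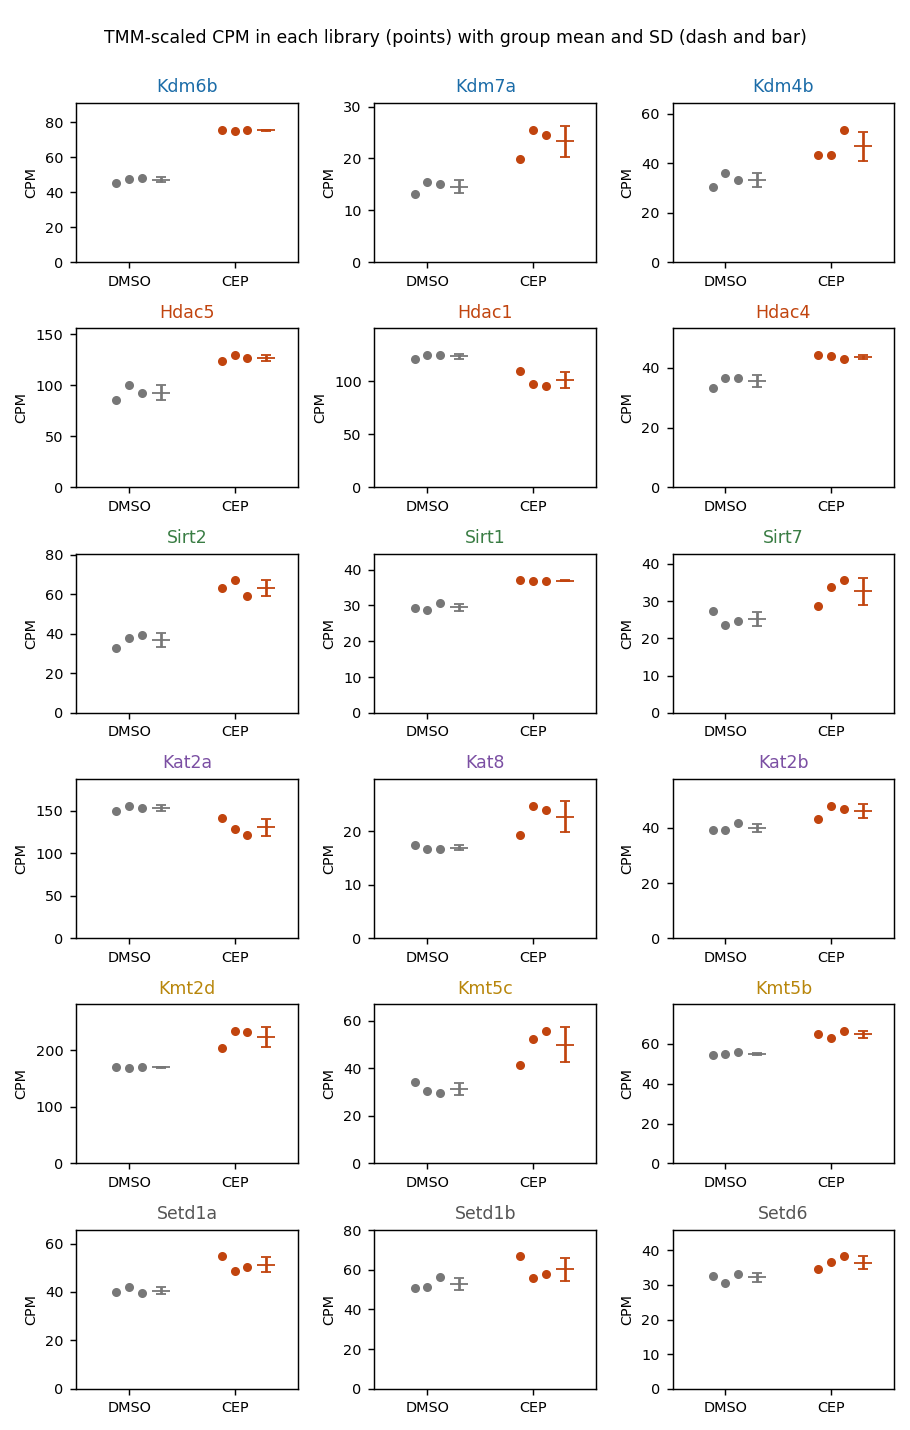
TMM-scaled CPM of 18 members, 3 per family, in each library (points; y axes start at 0), with the group mean and SD beside them. The groups are apart for Kdm6b, Sirt2, Hdac5 and Kmt5b, and for Setd1b they overlap.

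Acetyltransferase genes changed in both directions. Among the 8 Kat genes, 2 rose and 1 fell while 5 did not pass, with a median of 0.06. These shares, 25% higher and 12.5% lower, were near the 20.1% and 18.2% of all genes tested. The closest paralogs of the family moved apart. Kat2a (GCN5), the acetyltransferase gene of the SAGA and ATAC coactivators, fell. The DMSO libraries (replicates 1, 2 and 3) held 150.2, 156 and 154 CPM of Kat2a transcript, and the CEP libraries 141, 128 and 122 CPM in the same order. CEP replicate 1 was the nearest to DMSO, with no overlap. Kat2a thus had a log2 fold change of -0.23 ± 0.0552 (SE) with an edgeR adjusted p = 0.00419. Kat2b (PCAF), which can take the place of Kat2a in these complexes, was higher. Levels of Kat2b were 39.3, 39.2 and 41.8 CPM in DMSO and 43.4, 48.1 and 47.0 CPM in CEP, for replicates 1, 2 and 3 of each. Again CEP replicate 1 was the nearest to DMSO. For Kat2b this gave a log2 fold change of 0.20 ± 0.0668 (SE), and edgeR adjusted p = 0.0285. The Kat2b call ended when CEP replicate 2 or 3 or DMSO replicate 1 or 2 was left out (adjusted p 0.0857 to 0.115), with upper quartile scaling, under DESeq2, without a low-count filter, and with length and GC trends taken out (0.051 to 0.105, alternatives 0.00391 to 0.115). Per kilobase, Kat2a transcripts were 5.62 to 6.09 times those of Kat2b in the DMSO libraries and 3.96 to 4.98 times in the CEP libraries.

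Kat8 (MOF), which acetylates lysine 16 of histone H4, was the largest rise among these genes. Kat8 stood at 17.4, 16.7 and 16.6 CPM in DMSO replicates 1, 2 and 3 and at 19.4, 24.8 and 24.1 CPM in CEP replicates 1, 2 and 3. The DMSO libraries were tight, and CEP replicate 1 stood between them and the other CEP libraries. The log2 fold change of Kat8 was 0.42 ± 0.101 (SE; edgeR adjusted p = 0.00445). Its exons share 122 bases with Prss8 on the opposite strand. The other MYST-type genes did not pass: Kat5 (TIP60) stood at 0.10 ± 0.0886, Kat6a at -0.10 ± 0.0533, Kat6b at 0.14 ± 0.0761 and Kat7 at 0.03 ± 0.0536. Kat6a fell without CEP replicate 1 (edgeR adjusted p = 0.00116) and with length and GC trends taken out (0.0433, alternatives 0.00116 to 0.464). Kat14, of the ATAC complex, stood at -0.03 ± 0.0839.

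Of the 8 Kmt methyltransferase genes 5 rose and 3 did not pass (62.5% higher, 0% lower, beside 20.1% and 18.2% of all genes tested). Their median log2 fold change was 0.19. None fell in edgeR, DESeq2 or limma-voom, or at an unadjusted p under 0.05 in edgeR. Kmt5a, however, fell without CEP replicate 1 (edgeR adjusted p = 0.00115, alternatives 0.00115 to 0.674). Genes of the KMT2 group, which methylate H3K4 at promoters and enhancers, had log2 fold changes from 0.09 for Kmt2e, a member with little or no such activity, to 0.39 for Kmt2d.

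Kmt2d (MLL4), the main H3K4 monomethyltransferase gene of enhancers, was the clearest of these. The DMSO libraries (replicates 1, 2 and 3) held 171, 169 and 169.5 CPM of Kmt2d transcript, and the CEP libraries 203, 234 and 232 CPM in the same order. The DMSO values were nearly equal, and all CEP libraries lay higher. Kmt2d thus had a log2 fold change of 0.39 ± 0.0556 (SE) with an edgeR adjusted p = 9.35e-05. Its partner paralog Kmt2c (MLL3) stood at 0.18 ± 0.0688 and did not pass (edgeR adjusted p = 0.0565), but passed when CEP replicate 1 and DMSO replicate 3 were each left out in turn (adjusted p = 0.00422 and 0.0482), in a fit blocked on replicate number (0.0417), with a mean of at least 5 CPM required (0.0424) and with protein-coding genes only (0.0497, alternatives 0.00422 to 0.359). Kmt2a (MLL1), with 413 CPM in DMSO, rose by 0.20 ± 0.0593 (edgeR adjusted p = 0.015). Its call ended when CEP replicate 2, DMSO replicate 2 and DMSO replicate 3 were each left out in turn (adjusted p = 0.104, 0.078 and 0.0711) and with length and GC trends taken out (0.10, adjusted p = 0.199, alternatives 7.87e-07 to 0.199). Kmt2b rose by 0.18 ± 0.0595 (edgeR adjusted p = 0.028) but lost the call without any single library other than CEP replicate 1 (adjusted p 0.0598 to 0.148), with upper quartile scaling (0.061) and under DESeq2 (0.0554), and stood at 0.03 with length and GC trends taken out (adjusted p = 0.73, alternatives 0.000574 to 0.73). Kmt2e passed only without CEP replicate 1 (edgeR adjusted p = 0.0495, alternatives 0.0495 to 0.675). Exons of 20 tested members, the KMT2 genes among them, sum to over 6000 bases, and 9 of these rose and 0 fell. Of all 1481 tested genes that long, 29.0% rose and 16.0% fell. With length and GC trends taken out 1 KMT2 gene, Kmt2d, still rose.

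Of the KMT5 genes, which methylate lysine 20 of histone H4, Kmt5b and Kmt5c rose and Kmt5a did not pass. Kmt5c (SUV420H2), which makes the trimethyl mark of heterochromatin, had the larger rise. Levels of Kmt5c were 34.3, 30.4 and 29.4 CPM in DMSO and 41.5, 52.3 and 55.6 CPM in CEP, for replicates 1, 2 and 3 of each. CEP replicate 1 was the lowest CEP library and lay above all DMSO values. For Kmt5c this gave a log2 fold change of 0.66 ± 0.103 (SE), and edgeR adjusted p = 0.000333. The level of Kmt5b, the paralog that makes the dimethyl mark, varied little within groups. Kmt5b stood at 54.5, 55.0 and 55.7 CPM in DMSO replicates 1, 2 and 3 and at 65.0, 63.1 and 66.5 CPM in CEP replicates 1, 2 and 3. The groups did not overlap. The log2 fold change of Kmt5b was 0.24 ± 0.0549 (SE; edgeR adjusted p = 0.0037). Kmt5a (SET8), which makes the monomethyl mark and is tied to the cell cycle, stood at -0.09 ± 0.0640 (edgeR adjusted p = 0.275). Per kilobase, the level of Kmt5c was 0.306 to 0.388 of that of Kmt5a in the DMSO libraries and 0.439 to 0.698 in the CEP libraries.

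Of the 8 Setd genes 1 rose and 7 did not pass (12.5% higher, 0% lower, beside 20.1% and 18.2% of all genes tested). Their median was 0.07. None fell in edgeR, DESeq2 or limma-voom, or at an unadjusted p under 0.05 in edgeR. Setd3, however, fell without CEP replicate 1 (edgeR adjusted p = 0.00275) and with upper quartile scaling (0.041, alternatives 0.00275 to 0.381). Setd1a, the catalytic subunit gene of a complex that trimethylates H3K4 at promoters, was the one that rose. The DMSO libraries (replicates 1, 2 and 3) held 40.1, 42.0 and 39.5 CPM of Setd1a transcript, and the CEP libraries 54.7, 48.6 and 50.4 CPM in the same order. Each CEP library lay above each DMSO library, with CEP replicate 1 the highest. Setd1a thus had a log2 fold change of 0.34 ± 0.0664 (SE) with an edgeR adjusted p = 0.0011. In GENCODE release M21 its exons share 3523 bases with Gm49388 on the same strand, which had 0 reads in the table. Its paralog Setd1b had overlapping groups. Levels of Setd1b were 50.9, 51.2 and 56.3 CPM in DMSO and 66.8, 55.98 and 57.7 CPM in CEP, for replicates 1, 2 and 3 of each. CEP replicate 2 lay below DMSO replicate 3. For Setd1b this gave a log2 fold change of 0.19 ± 0.0733 (SE), and edgeR adjusted p = 0.0556. It passed without CEP replicate 2 (adjusted p = 0.0402), with library totals as the scale, without a low-count filter, with a mean of at least 5 CPM required and with protein-coding genes only (0.042 to 0.0491, alternatives 0.0402 to 0.724). Setd6, which methylates the NF-kB subunit RELA, did not overlap between groups yet missed the threshold. Setd6 stood at 32.7, 30.6 and 33.2 CPM in DMSO replicates 1, 2 and 3 and at 34.6, 36.5 and 38.3 CPM in CEP replicates 1, 2 and 3. CEP replicate 1 lay just above DMSO replicate 3. The log2 fold change of Setd6 was 0.18 ± 0.0715 (SE; edgeR adjusted p = 0.062). It passed without CEP replicate 1 (adjusted p = 0.0217) and with a mean of at least 5 CPM required (0.0474, alternatives 0.0217 to 0.242).

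Setd2, the gene for trimethylation of H3K36, and Setd5 stood at -0.0012 ± 0.0477 and 0.03 ± 0.0484. Setd7, a monomethyltransferase gene, stood at 0.10 ± 0.0496 and rose without CEP replicate 1 (edgeR adjusted p = 0.00894, alternatives 0.00894 to 0.623). Setd3, whose product methylates actin and not histones, stood at -0.09 ± 0.0470, and Setd4 had only 2.11 to 2.504 CPM on average in the groups.

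Levels differed more among members than between groups. Per kilobase of exon, the highest members in DMSO were Hdac2 at 91.4 ± 2.04, Setd3 at 86.6 ± 1.35, Hdac1 at 60.5 ± 1.17, Hdac3 at 60.2 ± 1.31, Kat2a at 50.4 ± 0.986 and Kdm1a at 49.4 ± 2.41 CPM per kilobase (SD, n = 3). Hdac1 and Hdac3, and Kat2a and Kdm1a, did not differ beyond their spread between libraries, while the other neighbours in this order did. That spread does not cover differences between genes in exon annotation or shared reads, so the order is only approximate. Of the 9 tested members at 30 CPM per kilobase or more in DMSO, 4 fell and 0 rose. The rises were also 0 under DESeq2 and limma-voom, and at an unadjusted p under 0.05 in edgeR. Of the 47 members below 30 CPM per kilobase, 19 rose and 1 fell. That limit was chosen after the values were seen. Among all genes tested, 16.3% rose and 39.8% fell at or above this level, and 21.1% rose and 12.2% fell below it. Summed over each family per kilobase, sirtuin transcripts came to 57.9 to 59.9 CPM per kilobase in the DMSO libraries and 77.2 to 81.7 in the CEP libraries. The Hdac sums were 296 to 302 and 275 to 281, the Kmt sums 126 to 129 and 139 to 147, and the Kat sums 152 to 154 and 147 to 161, in the same order. The Kat and Setd sums overlapped between groups and the other 4 did not.

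**Figure D4:**
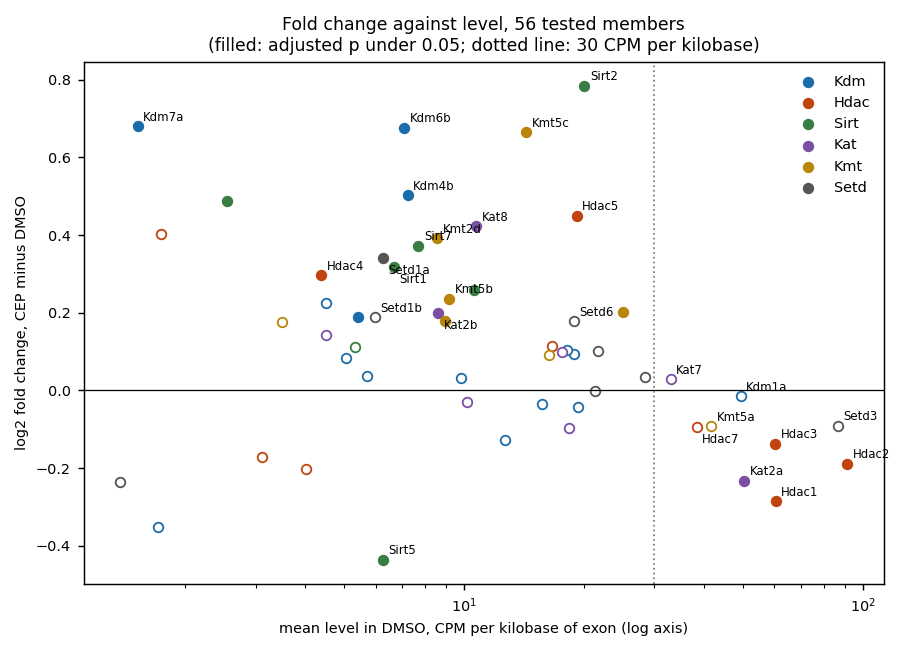
Mean level in DMSO in CPM per kilobase of exon (x axis, log scale) against log2 fold change (y axis) for the 56 tested members, coloured by family and filled where adjusted p was under 0.05. To the right of the dotted line at 30 CPM per kilobase, a limit chosen after the values were seen, 4 of the 9 members fell and none rose. Of all genes tested at or above this level, 39.8% fell and 16.3% rose.

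The groups did not overlap for 35 of the 56 members, 26 of them higher in CEP. Of all genes tested 49.9% did not overlap, 25.2% higher and 24.7% lower. In 17 of the 24 changed members CEP replicate 1 was the CEP library nearest to the DMSO mean, with a median absolute difference from it of 0.22 on the log2 scale against 0.33 and 0.38 in CEP replicates 2 and 3. Without CEP replicate 1, 25 members rose and 9 fell, beside 50.6% of all genes called. Why that library differs was not tested.

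Partner genes of the same complexes and enzymes outside the 6 symbol families were read from 8 lists chosen by role, and each list is described by counts, with edgeR. Brackets give the percent of tested genes that rose and that fell in each list, beside 20.1% and 18.2% of all genes tested. Settings shift all genes too: without CEP replicate 1, 50.6% were called, and 49.1% of these were higher. With length and GC trends taken out, 38.7% were called and 39.9% of these were higher, against 38.2% and 52.5% in the main fit. Of 6 other acetyltransferase genes 5 rose and 1 did not pass (83.3% and 0%, median 0.21). None fell in edgeR, DESeq2 or limma-voom, or at an unadjusted p under 0.05 in edgeR. Naa40, which acetylates the N-termini of histones H2A and H4, rose by 0.26 ± 0.0616 and the coactivator gene Ep300 by 0.21 ± 0.0539. With length and GC trends taken out 1 of the 6 rose, without DMSO replicate 3 there were 3 rises, and without CEP replicate 1 there were 5 rises and 1 fall. Among 12 tested subunit genes of the KMT2 and SETD1 complexes, 1 rose and 4 fell while 7 did not pass (8.33% and 33.3%, median -0.11). Wdr5, the scaffold shared by these complexes, changed by -0.32 ± 0.0595, Psip1, a chromatin tether of KMT2A, by -0.33 ± 0.0521, and Cxxc1, of the SETD1 complexes, by 0.33 ± 0.0777. Without CEP replicate 1, 7 of them fell.

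Polycomb complex 2 writes the mark that Kdm6b removes. Among its 11 genes, 2 rose and 4 fell while 5 did not pass (18.2% and 36.4%, median -0.05). The catalytic genes Ezh1 and Ezh2 went from 22.5 to 28.3 CPM and from 113 to 104 CPM, with log2 fold changes of 0.33 ± 0.0910 (edgeR adjusted p = 0.0109) and -0.13 ± 0.0468 (edgeR adjusted p = 0.0462). The accessory gene Phf1 rose by 0.65 ± 0.113, and the histone-binding genes Rbbp4 and Rbbp7, shared with deacetylase complexes, changed by -0.18 ± 0.0469 and -0.23 ± 0.0502. The rises numbered 1 when CEP replicate 3 or DMSO replicate 1 was left out, and the falls numbered 2 without CEP replicate 2 and 1 without DMSO replicate 2.

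Among 17 other methyltransferase genes, 4 rose and 4 fell while 9 did not pass (23.5% and 23.5%, beside 20.1% and 18.2% of all genes, median 0.01). Dot1l, the H3K79 methyltransferase gene, rose by 0.45 ± 0.0474 and Nsd3 by 0.23 ± 0.0499, while Smyd5 and Smyd2 fell (-0.38 ± 0.0739 and -0.37 ± 0.0740). Among 7 tested JmjC genes outside the Kdm symbols, 3 rose and 1 fell while 3 did not pass (42.9% and 14.3%, median 0.16). Hr, whose product is known as a nuclear receptor corepressor, rose from 27.8 to 55.7 CPM (1.00 ± 0.0686 on the log2 scale), Jmjd1c rose by 0.34 ± 0.0474 and Riox2 fell (-0.43 ± 0.110). The falls in that list numbered 2 without CEP replicate 1 and with length and GC trends taken out.

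Subunit genes of deacetylase corepressor complexes numbered 29 with a test: 7 rose and 3 fell while 19 did not pass (24.1% and 10.3%, median -0.02). Mbd3 and Sap18 fell (-0.28 ± 0.0523 and -0.30 ± 0.0558), and Hmg20b and Gatad2b rose (0.44 ± 0.0855 and 0.21 ± 0.0478). Among 36 subunit genes of acetyltransferase complexes, 10 rose and 3 fell while 23 did not pass (27.8% and 8.33%, median 0.04). Atxn7 and Brpf3 were higher (0.49 ± 0.0730 and 0.39 ± 0.0688) and Yeats2 and Taf5l lower (-0.32 ± 0.0554 and -0.24 ± 0.0565). Among 10 tested acetyl-lysine reader genes, 3 rose and 2 fell while 5 did not pass (30% and 20%, median -0.03). Brd2 rose by 0.17 ± 0.0458, and Mllt3 and Brd7 fell (-0.27 ± 0.0600 and -0.23 ± 0.0653). Without CEP replicate 1 the falls numbered 10 in the corepressor list and 8 in the acetyltransferase complex list. With length and GC trends taken out they numbered 11 and 8. Under these 2 settings 50.6% and 38.7% of all genes were called, and 49.1% and 39.9% of those were higher. The rises in the acetyltransferase complex list numbered 6 without DMSO replicate 2 and also with the trends taken out. Among the readers 0 rose with the trends taken out or without DMSO replicate 2, and 1 rose without DMSO replicate 1. The falls among the readers numbered 1 when CEP replicate 2, CEP replicate 3, DMSO replicate 2 or DMSO replicate 3 was left out.

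**Figure D5:**
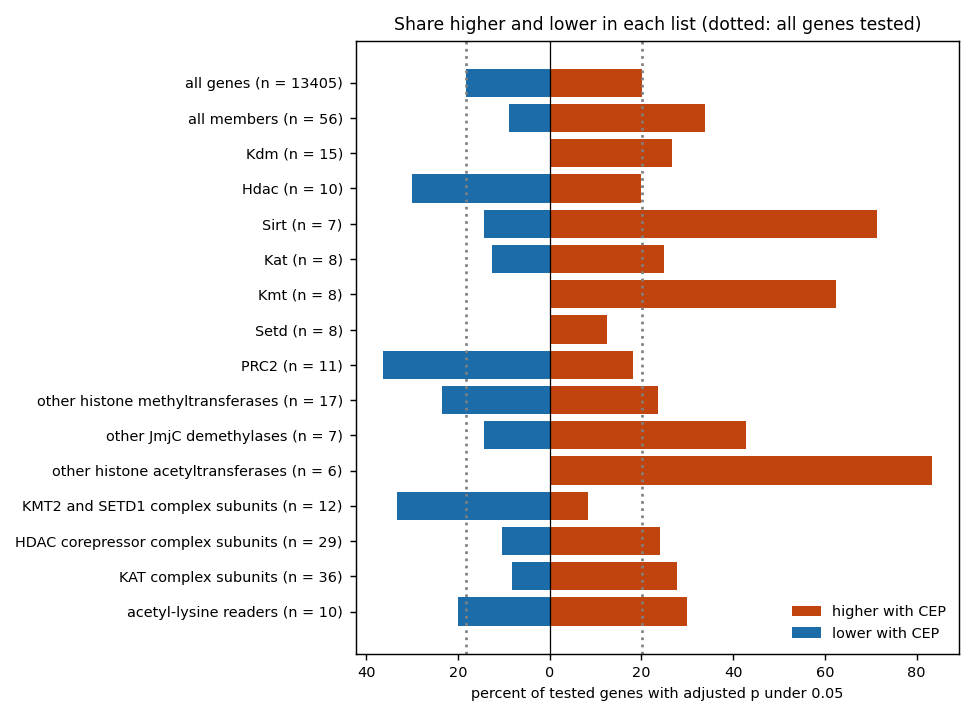
Percent of the tested genes of each list that were higher (right, red) or lower (left, blue) in CEP at adjusted p under 0.05, with dotted lines at the shares over all genes tested, 20.1% and 18.2%. The sirtuin, Kmt and other acetyltransferase bars extend furthest to the right, and those of PRC2 and of the KMT2 and SETD1 subunits furthest to the left.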

How the data were processed

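Bulk poly(A) RNA of 4T1 cells was sequenced in 3 CEP and 3 DMSO libraries, grouped by their titles (1 label says single cell, whereas the protocol and table are of bulk RNA). Per the labels' protocols, RNA was extracted with Trizol and libraries were made with a strand-marking (dUTP) mRNA kit. The deposited table holds the authors' whole-number read counts per Ensembl gene, not normalised, with exon length and GRCm38.p6 coordinates per the file headers. The tools DESeq2, HTSeq, HISAT and HISAT2 appear in the submitters' processing notes, roles unstated, and the strand setting is not given in the sources used here, so reads of overlapping or antisense genes and of pseudogene copies may be shared or lost.

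Here genes were kept with edgeR 4.0.16 filterByExpr (minimum count 10, total 15), scaled by TMM and tested with the robust quasi-likelihood test, CEP minus DMSO, over the whole table (R 4.3.3), with Benjamini-Hochberg adjustment. "edgeR adjusted p" refers to this test. SE was taken as the size of the log2 fold change divided by the root of the F statistic. CPM per kilobase divides by the deposited exon length. The code was tested on simulated counts. No pair of libraries was near-identical: chi-square per degree of freedom was 1.81 or more.

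The members, related lists and alternatives were chosen with earlier results of these data known. Values by library are given for the 3 members per family with the smallest adjusted p and for any changed member at 0.5 or more on the log2 scale, and up to 2 genes per related list and direction are named, by smallest adjusted p, with Ezh2 added for its role after its value was seen and 1 gene that the rule names not reported here. Alternatives were RLE, upper quartile and total scaling, DESeq2 1.42.0, limma-voom (limma 3.58.1), other filters, the replicate block, single libraries left out, no mitochondrial genes, a stricter threshold (0.01), protein-coding genes only and, added after seeing the data, removal of exon length and GC trends (loess span 0.5, GENCODE M21). Promoters are from RefSeq.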

Additional observations from a re-analysis of the deposited data

How the results depend on the processing

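Of the 24 changed members, 16 kept their call under every alternative run, and 19 of the 32 others passed under none. The members that rose numbered 19 and those that fell 5, and with single libraries left out they ran from 14 to 25 and from 3 to 9, both highest without CEP replicate 1, while the falls were 3 without any other single library. The falls numbered 8 with length and GC trends taken out and 3 at a threshold of 0.01. With the replicate number as a block (replicate block) 20 members rose and 4 fell. Same-numbered libraries did not deviate together (correlations -0.05, 0.02 and -0.04). That gave no sign of pairing by number, but 3 libraries per group are too few to settle it.

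By family, Kdm falls went from 0 to 1 with upper quartile scaling and with trends removed, and were 0 to 1 with a library left out. Hdac rises ran from 2 to 4 with a library left out. Sirt rises went from 5 to 3 under DESeq2 and at 0.01 (3 to 5 with a library left out), and Sirt falls from 1 to 0 at 0.01 (0 to 1). Kat rises went from 2 to 1 with upper quartile scaling, DESeq2, no low-count filter, trends removed and 0.01 (1 to 2), and Kat falls from 1 to 2 with trends removed (1 to 2). Kmt rises went from 5 to 3 with trends removed and at 0.01 (3 to 7), and Kmt falls ran from 0 to 1 with a library left out. Setd rises went from 1 to 2 with library totals, no filter and protein-coding genes only, and to 3 with a mean of 5 CPM (1 to 3), and Setd falls from 0 to 1 with upper quartile scaling (0 to 1). Settings that leave out a library hold fewer samples, yet without CEP replicate 1 50.6% of all genes were called, against 38.2% with all libraries. The causes of these differences between settings were not tested. The members' median of 0.10 was 0.0732 with upper quartile scaling and 0.0326 with trends removed, beside -0.02 and -0.05 for all genes, and from 0.0755 (without DMSO replicate 1) to 0.117 with a library left out. Depth limits the members under 10 CPM, such as Kdm8, Setd4, Hdac8, Hdac10, Hdac11 and the mitochondrial sirtuin genes.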
